A study of Mus musculus with 12 samples.

Results

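Whole lungs of C57BL6/J mice that had received L-NAME with a high-fat diet for 5 weeks were compared with lungs of mice that had received the same regimen for 2 weeks. The comparison uses 8 of the 12 bulk RNA-seq libraries of the series, 4 mice at 5 weeks and 4 at 2 weeks, and it covers all genes of the deposited table. The mice drank water with 0.5 g/L L-NAME and ate a diet of 60% lipid. The other 4 libraries are 0-week controls of the same strain, and their values are given beside the treated groups for some genes. Age and sex are not recorded in the labels, and the only untreated group analysed here is the 0-week one, so that time on study and length of treatment cannot be told apart. Libraries are called replicate 1 to 4 within a group, a number that only names a mouse.

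L-NAME blocks nitric oxide synthases, the enzymes that make the vasodilator nitric oxide, and together with a fat-rich diet it serves in mice as a model of heart failure in which the ejection fraction is preserved. The study's title asks about remodelled lung vessels and IL-1β made by myeloid cells. IL-1β is a cytokine that is made as an inactive precursor, cleaved after an inflammasome assembles, and opposed by the receptor antagonist encoded by Il1rn. In lung arteries the contractile proteins of smooth muscle and the elastic fibres between its layers set the stiffness and tone of the wall.

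After 5 weeks, transcripts of Il1b, its antagonist Il1rn and receptors of monocytes and neutrophils averaged higher than after 2 weeks, and those of elastin and smooth muscle contractile proteins averaged lower. Values are CPM, read counts scaled to a common library size, tested as log2(CPM + 1) with limma, and differences are 5 minus 2 weeks on that scale, which understates the change of low genes. Of 15562 genes averaging 1 CPM or more over the 12 libraries, 0 passed a limma adjusted p of 0.05 in the higher direction (0%) and 0 in the lower direction (0%). The smallest adjusted p was 0.2759. At an unadjusted p under 0.05 there were 961 genes higher (6.18%) and 735 lower (4.72%). In 370 genes (2.38%) all 5-week libraries lay above all 2-week libraries, and in 399 (2.56%) all lay below. The shares in this and the preceding sentence are the background for the list counts given below. The median difference over all tested genes was 0.0007 log2 units, with 7817 genes higher in mean and 7745 lower. The other 7565 genes of the table lay under the filter and were not tested.

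How many genes passed turned on 2-week replicate 4 and on how libraries were weighted. Without 2-week replicate 4, 287 genes were higher (1.84%) and 99 lower (0.636%) at a limma adjusted p under 0.05, out of 15563. With limma's library weights, which give less weight to variable libraries, 579 genes were higher (3.72%) and 302 lower (1.94%). The lowest weight, 0.205, went to 5-week replicate 3, and 2-week replicate 4 had 0.581. The highest was 2.556, for 5-week replicate 1. Leaving out 5-week replicate 3 alone gave 0 genes in each direction. The fit with library weights and the fit without 2-week replicate 4 both called 278 of the higher and 81 of the lower genes. Of the genes that passed without 2-week replicate 4, only 54 of the higher and 25 of the lower kept the 5-week libraries apart from all 4 of the 2-week libraries. That library correlated best with the 5-week group of all 2-week libraries. Where its value stood nearest the 5-week group, leaving it out enlarges the difference and narrows the 2-week spread. Adjusted p-values without it, here and below, are therefore descriptions and not separate evidence. In the plot of passing genes by setting, the bars stand at 0 for every other setting except the one that left out 2-week replicates 3 and 4 together.

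**Figure D1:**
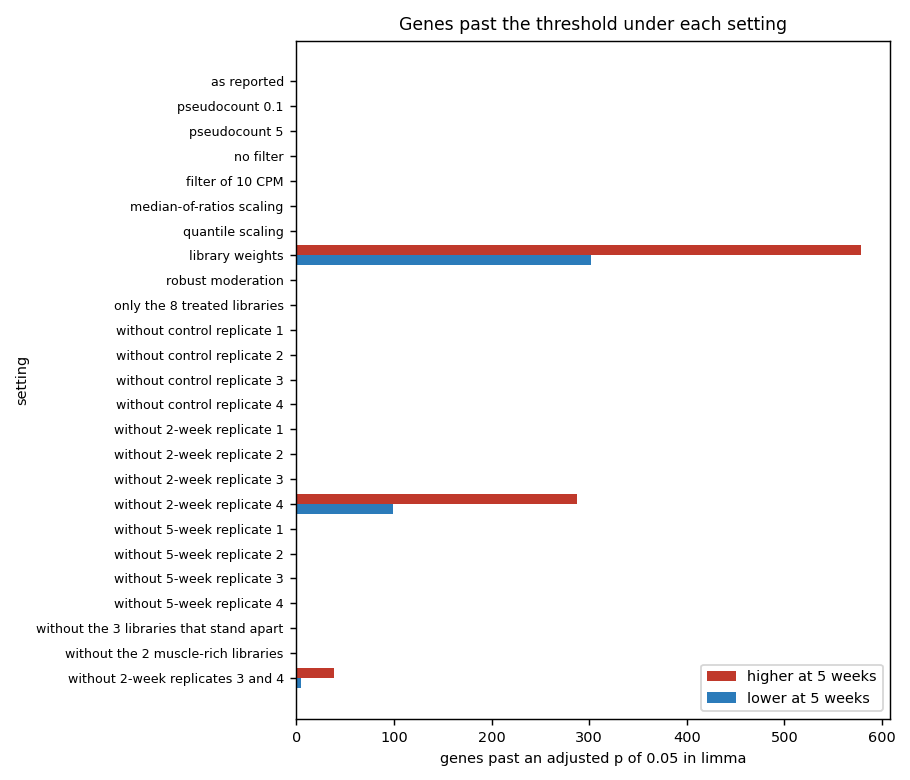
Number of genes past a limma adjusted p of 0.05 (x axis) under each setting (y axis), higher at 5 weeks in red and lower in blue. Library weights gave 579 and 302 genes, leaving out 2-week replicate 4 gave 287 and 99, and leaving out 2-week replicates 3 and 4 gave 38 and 5, whereas the other settings gave 0.

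The libraries held lung RNA: summed over the list, alveolar type 2 and surfactant genes took between 29119 and 35759 CPM at 2 weeks and between 32566 and 40419 CPM at 5 weeks. The spacing of the lowest CPM values gives a depth of 26000000 to 34100000 reads per library. The first principal component took 30.55% of the variance and set 2-week replicate 3 apart, with skeletal muscle genes leading it. In that library 12 skeletal muscle genes summed to 11029 CPM, against 9.55 to 21.1 CPM in the other 2-week and 11.3 to 13.4 CPM in the 5-week libraries. Replicate 4 of the 2-week group correlated better across genes with the 5-week libraries (mean r of 0.98993) than with the other 2-week libraries (0.97714), among them the muscle-rich replicate 3. All 4 control libraries likewise correlated better with the 5-week than with the 2-week group, and no gene of the table serves to check the label of 2-week replicate 4, whose time point is taken as labelled. Replicate 3 of the 5-week group carried the most haemoglobin transcript.

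Promoters of Fcgr4, Cd300ld and Il1b are shown as examples from the myeloid genes described next. They were picked after the values were seen, as promoters that hold the string marked in them. Other myeloid genes with similar differences are not shown. The sequences come from RefSeq on GRCm38.p6 and run 5′ to 3′ on the strand of the gene, from 250 bases before to 50 bases after the start. Capitals mark GAGGAAGT, a string of the type bound by the ETS factor PU.1, in the first and second, and TATAAA in Il1b. In Fcgr4 GAGGAAGT lies on the opposite strand and is therefore printed as its reverse complement.
Fcgr4 (chr1:171018676-171018975, + strand): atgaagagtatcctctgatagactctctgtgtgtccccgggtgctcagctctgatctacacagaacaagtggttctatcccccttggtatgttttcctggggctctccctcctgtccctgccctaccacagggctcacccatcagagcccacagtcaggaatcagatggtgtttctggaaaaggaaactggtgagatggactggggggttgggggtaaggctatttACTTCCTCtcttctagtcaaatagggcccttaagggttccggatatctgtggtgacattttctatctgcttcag
Cd300ld (chr11:114989837-114990136, - strand): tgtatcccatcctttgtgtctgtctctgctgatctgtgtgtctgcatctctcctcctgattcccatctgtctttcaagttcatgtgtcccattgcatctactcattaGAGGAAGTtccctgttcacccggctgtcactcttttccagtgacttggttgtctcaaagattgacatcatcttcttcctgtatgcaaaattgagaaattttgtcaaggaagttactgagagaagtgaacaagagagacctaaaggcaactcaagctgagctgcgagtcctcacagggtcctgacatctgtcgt
Il1b (chr2:129371090-129371389, - strand): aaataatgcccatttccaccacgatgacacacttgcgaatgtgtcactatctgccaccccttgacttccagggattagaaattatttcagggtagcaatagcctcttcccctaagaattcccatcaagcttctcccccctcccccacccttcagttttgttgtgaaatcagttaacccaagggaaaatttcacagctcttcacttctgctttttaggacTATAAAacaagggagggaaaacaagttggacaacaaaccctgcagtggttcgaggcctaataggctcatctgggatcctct
Both strands were searched for 8 motifs, chosen after the values were seen, in the promoters of 11426 tested genes that matched by symbol. GAGGAAGT stood in 20 of the 278 matched genes with all 5-week libraries above (7.19%), in 8 of the 305 with all below (2.62%) and in 429 of the 11426 (3.75%). It stood in 3.2% of all 32851 promoters of the table. The overlapping ETS strings gave 7.55%, 4.26% and 5.2% (AGGAAGTG) and 38.1%, 29.5% and 31.4% (GGAAGT), in the order above, below and all matched genes. The NF-kB-type string, GGGA followed after any 4 bases by CC, gave 32.4%, 30.2% and 30.2%, and the AP-1-type string TGANTCA 8.99%, 4.92% and 6.52%. TATAAA gave 12.6%, 10.5% and 9.39%, CANNTG 71.9%, 69.5% and 68.3%, and the CArG box, the element of smooth muscle genes, 1.8%, 2.3% and 1.59%. These shares are descriptions with no test.

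Il1b (ENSMUSG00000027398, chromosome 2, 129206490 to 129213059 as the deposited table gives it, in a build it does not name) measured 4.33, 7.86, 8.03 and 18.3 CPM in 2-week replicates 1 to 4. In the 5-week replicates 1 to 4 it measured 25.1, 13.2, 35.5 and 39.2 CPM, and in the controls between 7.81 and 17.7 CPM. The groups overlapped through a single pair: 2-week replicate 4 lay above 5-week replicate 2. The means were 9.64 ± 6.04 CPM at 2 weeks and 28.3 ± 11.7 CPM at 5 weeks (SD, n = 4), 2.93 times as high, a difference of 1.51 log2 units (SE 0.385). The limma adjusted p was 0.288, and the exact two-sided permutation p was 0.0571, where 0.0286 is the smallest that 4 against 4 mice allow. Without 2-week replicate 4 the limma adjusted p was 0.0208, with library weights it was 0.0229, and over all alternatives it reached from 0.0208 to 0.657.

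Il1rn, whose product occupies the IL-1 receptor without signalling, measured 4.20, 4.51, 3.81 and 9.79 CPM at 2 weeks and 12.02, 10.4, 13.4 and 16.6 CPM at 5 weeks. Every 5-week value lay above every 2-week value, with a difference of 1.17 log2 units (SE 0.244, limma adjusted p = 0.276). Control lungs held 7.58 ± 1.82 CPM (SD, n = 4). Nlrp3, the sensor of an inflammasome and a gene chosen after its values were seen, averaged 3.43 CPM at 2 weeks and 6.73 CPM at 5 weeks, with overlapping groups and a limma adjusted p of 0.29. Of the 23 tested genes of the IL-1 family and inflammasome list, 21 were higher in mean at 5 weeks, 8 of them at an unadjusted p under 0.05, and 4 kept the groups apart. The median difference of the list was 0.22 log2 units, and it was 0.37 without 2-week replicate 4 and 0.13 without control replicate 2, 2-week replicate 3 and 5-week replicate 3. No gene of the list passed the adjusted threshold with all libraries, and 3 passed without 2-week replicate 4. Of 17 tested acute inflammatory and NF-kB feedback genes, 1 was higher and 2 were lower at an unadjusted limma p under 0.05. Their median was 0.07, and none kept the groups apart. Of 19 tested chemokine genes, 4 were higher and 1 lower at that p, and 2 kept the groups apart (median 0.11).

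**Figure D2:**
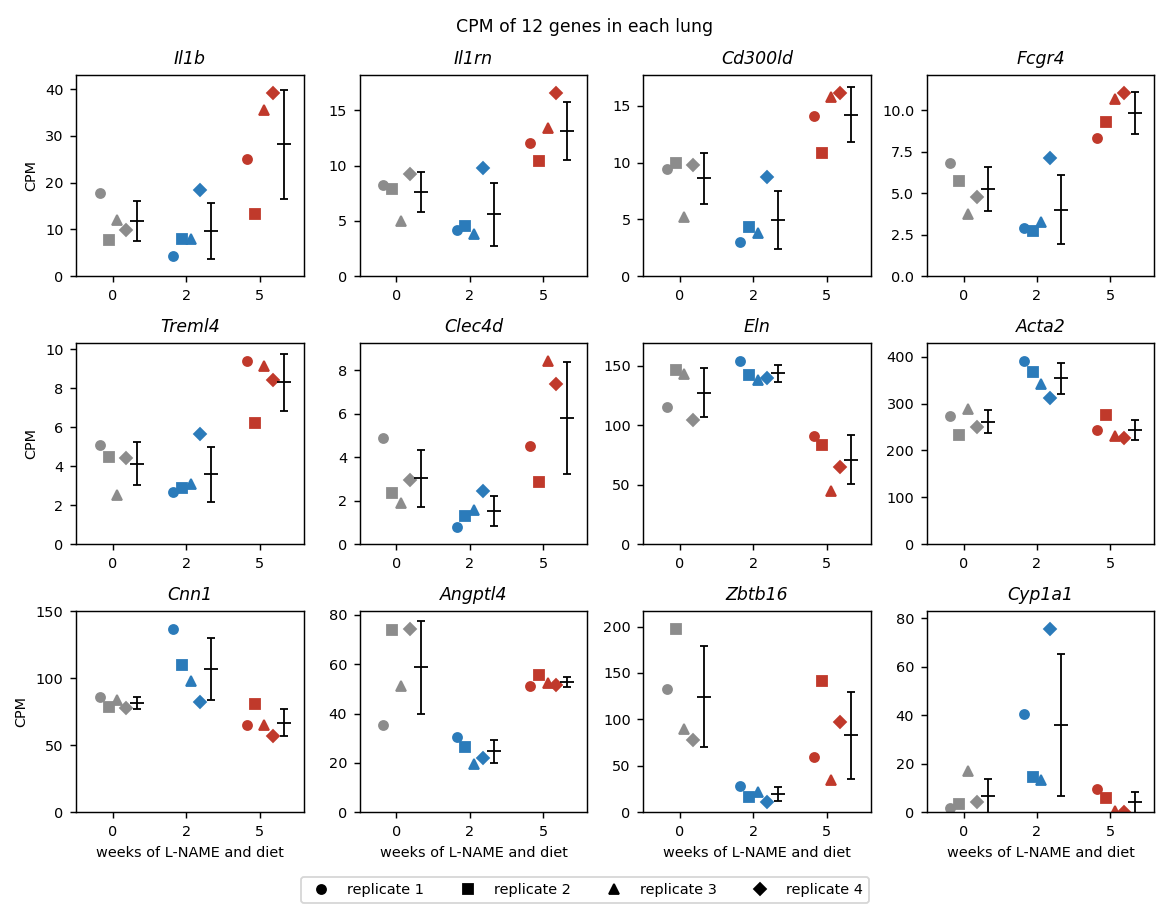
CPM (y axis, from 0) of 12 genes in each lung by weeks of L-NAME and diet (x axis), a symbol per replicate, with the mean and SD of each group of 4 in black. For Il1rn, Cd300ld, Fcgr4, Treml4, Clec4d, Angptl4 and Zbtb16 all 5-week points lie above the 2-week points, for Eln, Acta2, Cnn1 and Cyp1a1 all lie below, and for Il1b 1 pair overlaps.

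Genes of nonclassical monocytes, the patrolling monocytes of the vessel lumen, had, with neutrophil genes, the highest median differences of the leukocyte lists. Fcgr4, an activating Fc receptor for IgG, measured 2.93, 2.70, 3.26 and 7.11 CPM at 2 weeks and 8.34, 9.26, 10.6 and 11.04 CPM at 5 weeks (1.19 log2 units, SE 0.228). Cd300ld, a receptor of the CD300 family on myeloid cells, measured 3.02, 4.31, 3.77 and 8.70 CPM at 2 weeks and 14.1, 10.9, 15.8 and 16.1 CPM at 5 weeks (1.43 log2 units, SE 0.254). Treml4, which marks a subset of these monocytes, averaged 3.58 ± 1.41 CPM at 2 weeks and 8.30 ± 1.45 CPM at 5 weeks (SD, n = 4). In all 3 genes the groups did not overlap, 2-week replicate 4 was the highest 2-week library, and the limma adjusted p was 0.276. Control means were 5.26 CPM for Fcgr4, 8.60 CPM for Cd300ld and 4.13 CPM for Treml4, each between the 2-week and 5-week means. Without 2-week replicate 4 the limma adjusted p was 0.0151 for Fcgr4 and for Cd300ld and 0.0165 for Treml4.

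Of the 13 genes of that list, 10 were higher in mean at 5 weeks, 9 at an unadjusted p under 0.05, and 6 kept the groups apart. The 3 lower in mean were Nr4a1 (-0.43 log2 units), Ace (-0.09) and Eno3 (-1.08). Summed over the list, CPM lay between 1727.5 and 2051.6 at 2 weeks and between 1588 and 2046.4 at 5 weeks. Such a sum is carried by the genes with the most reads, whereas Fcgr4, Cd300ld and Treml4 each measured at most 16.1 CPM. The median difference of the list was 0.98 log2 units, between 0.80 and 1.18 when each library was left out in turn. The list was 1 of 3 whose mean log2 level in every 5-week library lay above that in every 2-week library. The others were platelet and unfolded protein response genes. In 1 list, the aryl hydrocarbon receptor targets, every 5-week level lay below every 2-week level. Of its 8 tested genes only Cyp1a1 was itself wholly below, at -3.06 log2 units, and the median was -0.15. That mean level therefore rested largely on 1 gene. A whole-lung library does not tell more cells of a type from more RNA per cell, which holds for each cell type list here. Of the 12 tested genes of classical monocytes 7 were higher at an unadjusted p under 0.05 and 1 kept the groups apart (median 0.66).

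Neutrophil genes had a median difference of 0.97 log2 units, with 14 of 15 tested genes higher in mean at 5 weeks and 13 at an unadjusted p under 0.05. Of the 15, 1 kept the groups apart, beside 2.38% of all tested genes wholly above. Mmp9, a gelatinase stored in neutrophil granules, measured 6.98, 7.34, 7.29 and 20.5 CPM at 2 weeks and 24.3, 20.1, 37.0 and 43.3 CPM at 5 weeks. Again 2-week replicate 4 lay within the 5-week range, while its 3 companions lay close together below it. Cxcr2, the receptor for neutrophil-attracting chemokines, averaged 6.09 ± 3.82 CPM at 2 weeks and 20.3 ± 8.38 CPM at 5 weeks (SD, n = 4), with a limma adjusted p of 0.278 and of 0.019 without 2-week replicate 4. S100a9, a subunit of calprotectin named after its values were seen, averaged 21.1 ± 16.6 and 78.5 ± 46.3 CPM, and 32.6 ± 22.4 CPM in controls. Clec4d, a C-type lectin receptor of myeloid cells, averaged 1.52 ± 0.678 CPM at 2 weeks and 5.80 ± 2.56 CPM at 5 weeks, with groups that did not overlap.

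Lymphoid genes lay on the same side. All 19 genes of the natural killer and cytotoxic list were higher in mean at 5 weeks, 14 at an unadjusted p under 0.05 and 6 without overlap (median 0.65). Nkg7, a cytotoxic granule protein, measured 4.89, 5.33, 5.69 and 9.43 CPM at 2 weeks and 10.4, 12.3, 13.5 and 11.4 CPM at 5 weeks. Ccl5, a chemokine of cytotoxic lymphocytes, averaged 14.7 ± 4.70 CPM and 25.9 ± 2.58 CPM, and its groups did not overlap either. Among T cell genes 20 of 20 were higher in mean and 8 at an unadjusted p under 0.05 (median 0.38, and 0.57 without 2-week replicate 4), but none kept the groups apart. Among B cell genes 18 of 19 were higher in mean (median 0.66), and the median was 0.45 without 5-week replicate 3. Cd79a, a part of the B cell receptor, measured 121 CPM in that library and between 51.3 and 59.1 CPM in the other 5-week libraries, against 64.0 CPM in 2-week replicate 4.

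Genes of antigen presentation and of alveolar macrophages were also higher in mean. H2-DMb1, which helps to load peptide onto MHC class II, averaged 46.6 ± 8.17 CPM at 2 weeks and 69.96 ± 8.03 CPM at 5 weeks without overlap (0.59 log2 units, SE 0.129). H2-Aa, a chain of the class II molecule itself, averaged 351 ± 63.3 CPM and 499 ± 59.9 CPM, with overlap. Of the 22 genes of dendritic cells and MHC class II, 18 were higher in mean and 12 at an unadjusted p under 0.05 (median 0.44). Of the 19 tested alveolar macrophage genes 17 were higher in mean and 10 at an unadjusted p under 0.05 (median 0.61), and none kept the groups apart. Interstitial macrophage genes had a median of 0.14, with 12 of 18 higher in mean, and of 0.08 without 2-week replicate 3. Of 4 tested mast cell and basophil genes, 3 were lower in mean (median -0.10, between -0.19 and 0.02 with each library left out in turn).

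Red cell genes were higher in mean at 5 weeks as well, all 8 tested, 6 of them at an unadjusted p under 0.05 and none without overlap (median 1.37, and 0.84 without 5-week replicate 3). Hbb-bs, a beta globin whose reads cannot be told with certainty from those of its near-identical copy Hbb-bt, measured 933, 747, 387 and 473 CPM at 2 weeks and 1704, 586, 7190 and 1568 CPM at 5 weeks. Over the 12 red cell genes in the table, the sum lay between 1136.8 and 2542.6 CPM at 2 weeks and between 1568.6 and 16290 CPM at 5 weeks. The part of this in the leukocyte differences was not tested. Without 5-week replicate 3, the library richest in haemoglobin, the median was 0.94 for nonclassical monocyte, 0.87 for neutrophil and 0.58 for natural killer genes. The red cell median without that library was itself 0.84, so leaving it out did not remove the red cell difference. Platelet genes had a median of 0.46 with that library and 0.25 without it. Tubb1, the tubulin of platelets, averaged 3.80 ± 0.519 CPM and 6.68 ± 1.55 CPM without overlap.

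**Figure D3:**
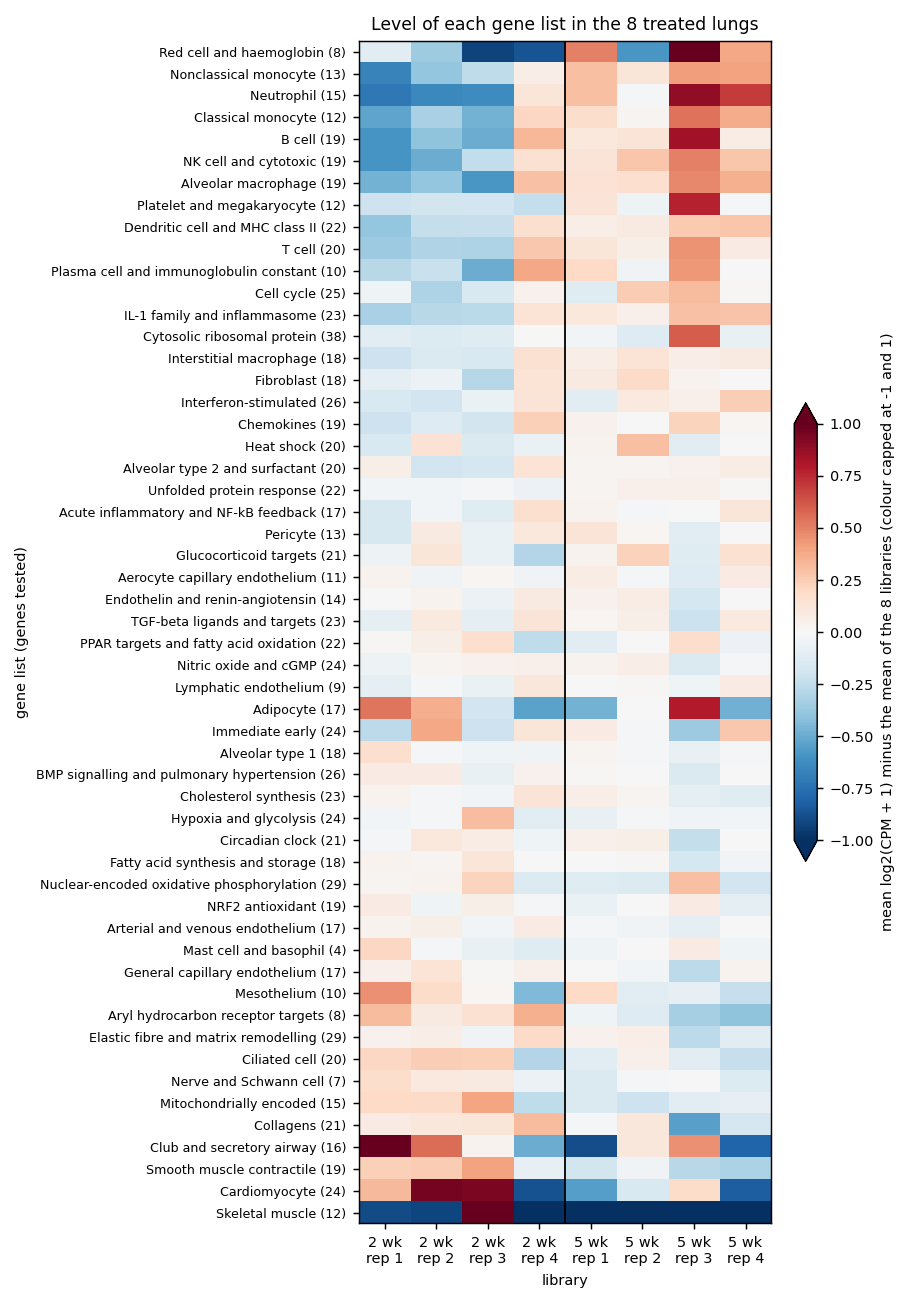
Level of 54 gene lists (y axis, number of genes tested in brackets) in the 8 treated lungs (x axis), as mean log2(CPM + 1) minus the mean of the 8 libraries, in red where higher and blue where lower. The monocyte, neutrophil, natural killer, T and B cell lists are blue in 2-week replicates 1 to 3 and red in most 5-week libraries and in 2-week replicate 4, the mast cell and basophil list is not, and skeletal muscle genes are red only in 2-week replicate 3.

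The genes of elastin and of smooth muscle actin, Eln and Acta2, had the smallest p-values of the comparison and averaged lower at 5 weeks. Eln, the elastin precursor (ENSMUSG00000029675), measured 154, 142, 138 and 139 CPM at 2 weeks and 91.1, 83.3, 44.7 and 64.5 CPM at 5 weeks. The 2-week values lay close together and all above the 5-week values, so that the mean was 2.02 times as high at 2 weeks (difference -1.06 log2 units, SE 0.181, limma adjusted p = 0.276). Controls held 127 ± 20.8 CPM (SD, n = 4). Without 2-week replicate 4 the limma adjusted p was 0.0213, and over all alternatives it lay between 0.017 and 0.642.

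Acta2, the alpha actin of smooth muscle, measured 391, 368, 343 and 313 CPM at 2 weeks and 243, 275, 231 and 226 CPM at 5 weeks. Its groups did not overlap, the difference was -0.53 log2 units (SE 0.092, limma adjusted p = 0.276), and the controls at 262 ± 24.8 CPM stood near the 5-week mean of 244 ± 22.0 CPM. Cnn1, the actin-binding calponin of smooth muscle, measured 137, 110, 98.1 and 81.9 CPM at 2 weeks and 65.1, 80.8, 65.1 and 56.5 CPM at 5 weeks, so the groups were apart by the margin of 81.9 over 80.8 CPM. Tagln and Myh11, an actin cross-linker and the smooth muscle myosin heavy chain, were chosen after their values were seen. Tagln averaged 284 ± 24.1 CPM at 2 weeks and 217 ± 31.6 CPM at 5 weeks without overlap. Myh11 averaged 265 ± 35.4 CPM and 198 ± 41.9 CPM with overlap.

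All 19 genes of the smooth muscle list were lower in mean at 5 weeks, 13 at an unadjusted p under 0.05 and 7 without overlap (median -0.43). With all libraries 0 of the 19 passed the adjusted limma threshold, and without 2-week replicate 4 there were 6. Some of these genes are also expressed in striated muscle, which differed between libraries: all 24 cardiomyocyte genes and all 12 skeletal muscle genes were lower in mean at 5 weeks. The cardiomyocyte list was meant for the cardiac muscle sleeve of pulmonary veins. Some of its genes, such as Ckm and Myl1, also led the component that set the muscle-rich 2-week replicate 3 apart. The list summed to between 1091 and 4293 CPM at 2 weeks and between 1129 and 1704 CPM at 5 weeks. The 4293 CPM stood in 2-week replicate 3, and 2-week replicate 2 had 3672 CPM. Myh4, a fast skeletal myosin, stood at 2749 CPM in 2-week replicate 3 and at no reads in every 5-week library. Without that library the smooth muscle median was -0.37, and Acta2 there was 343 CPM, lower than in 2-week replicates 1 and 2. The part of cardiac muscle in the result was not tested.

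Matrix genes other than Eln lay mostly lower in mean. Of 21 collagen genes 18 were lower, 12 at an unadjusted p under 0.05 and 2 without overlap (median -0.31), and the median was -0.17 without 5-week replicate 3. Col1a1, the main chain of type I collagen, measured 400, 388, 389 and 511 CPM at 2 weeks and 309, 396, 193 and 248 CPM at 5 weeks. Here 2-week replicate 4 was the highest library, so that it lay furthest from the 5-week group, unlike in the leukocyte lists. Col4a2, a basement membrane collagen, averaged 848 ± 32.3 CPM and 653 ± 136 CPM without overlap. Mmp14, a membrane-bound collagenase, averaged 58.6 ± 1.80 CPM and 47.0 ± 5.11 CPM, also without overlap. Mfap4, a microfibril protein of the same elastic fibre list, lay the other way at 521 ± 64.5 CPM and 714 ± 154 CPM, with overlap. Over the 29 elastic fibre and matrix genes 17 were lower and 12 higher in mean (median -0.16, and -0.09 without 5-week replicate 3).

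**Figure D4:**
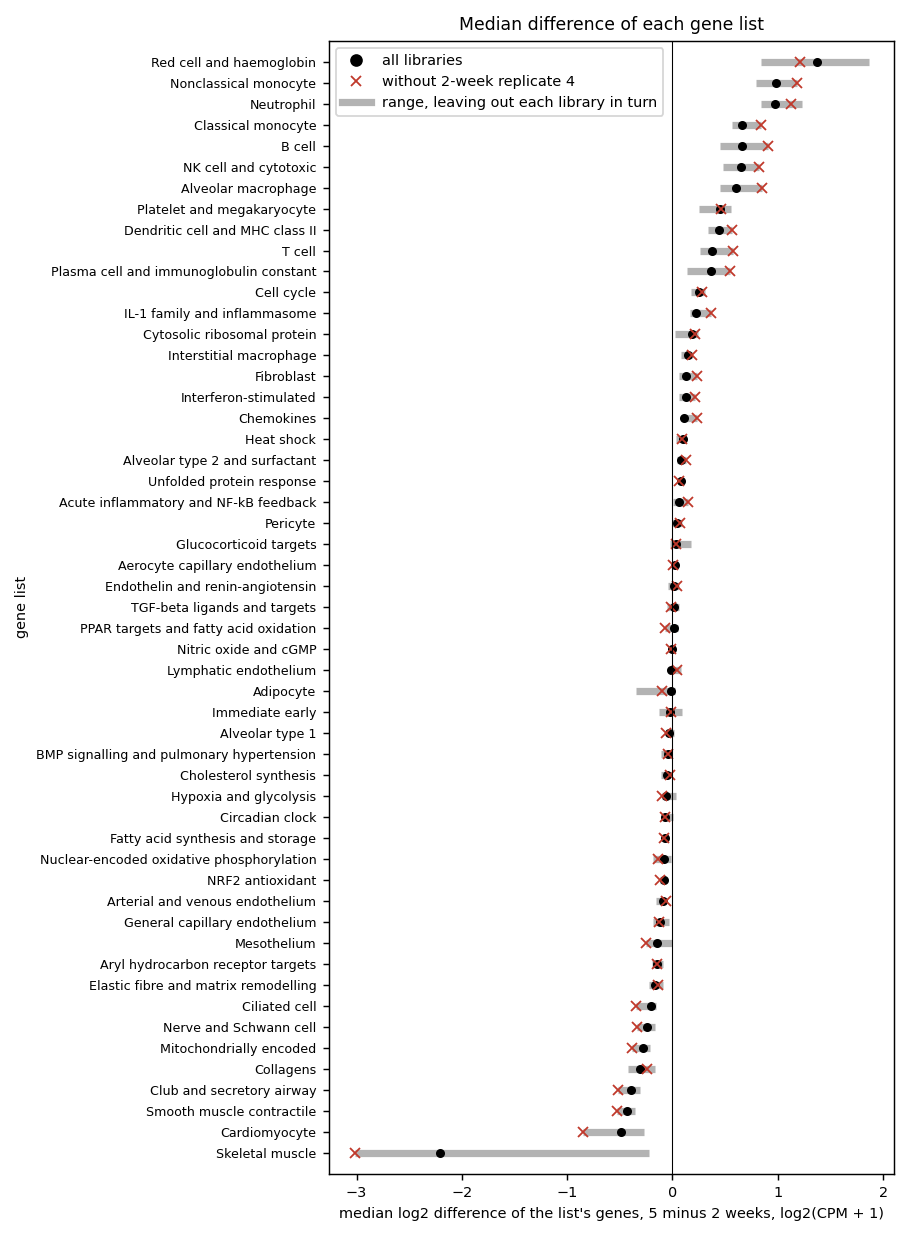
Median log2 difference of the genes of each list, 5 minus 2 weeks (x axis), for the lists with at least 5 tested genes (y axis). Black points use all libraries, red crosses leave out 2-week replicate 4 and grey bars span the values with each library left out in turn, from 1.37 for red cell genes at the top to -2.20 for skeletal muscle genes at the bottom, which is -0.23 without 2-week replicate 3.

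Angptl4, a secreted inhibitor of lipoprotein lipase induced by fatty acids and by glucocorticoids, measured 30.4, 26.4, 19.6 and 22.1 CPM at 2 weeks and 51.0, 55.5, 52.4 and 51.6 CPM at 5 weeks. The 5-week values lay within a few CPM of each other and the groups were far apart (1.08 log2 units, SE 0.199, limma adjusted p = 0.276). Controls spread between 35.6 and 74.4 CPM. Zbtb16, a transcription factor that glucocorticoids induce, measured 28.3, 16.7, 21.9 and 10.5 CPM at 2 weeks, 58.9, 142, 34.3 and 97.2 CPM at 5 weeks and between 77.3 and 198 CPM in controls. Its difference was 1.94 log2 units (SE 0.412), without overlap, and its limma adjusted p stayed over 0.05 without 2-week replicate 4, at 0.0572. The 21 glucocorticoid target genes as a group had a median of 0.03 (between -0.03 and 0.18 with each library left out in turn), and 15 of them were higher in mean. Plin2, a lipid droplet coat protein, averaged 98.7 ± 15.3 CPM and 126 ± 8.21 CPM with overlap, and PPAR target and fatty acid oxidation genes had a median of 0.01 (between -0.07 and 0.05).

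Cyp1a1, the xenobiotic-metabolising enzyme under the aryl hydrocarbon receptor, measured 40.5, 14.4, 13.5 and 75.7 CPM at 2 weeks and 9.45, 5.85, 0.656 and 0.234 CPM at 5 weeks. All 5-week values lay under all 2-week values, both groups spread widely, and the 5-week mean of 4.05 ± 4.42 CPM stood near that of the controls, 6.51 ± 7.07 CPM (SD, n = 4). The difference was -3.06 log2 units (SE 0.765, limma adjusted p = 0.288, and 0.102 without 2-week replicate 4). Of the 8 tested genes of that list 6 were lower in mean, with a median of -0.15, and of -0.09 without 5-week replicate 3.

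Among the 20 genes with the smallest p, predicted genes left out, 14 were higher and 6 lower in mean at 5 weeks. All 20 were without overlap, beside 2.38% of all tested genes wholly above and 2.56% wholly below, and 18 passed without 2-week replicate 4. Both counts follow largely from choosing the genes by this same comparison. Beside those above they include the transcription factor Klf16 (19.5 ± 1.74 and 26.5 ± 2.53 CPM at 2 and 5 weeks), the actin-binding coronin Coro2a (27.8 ± 1.80 and 36.0 ± 2.28 CPM) and the death receptor Fas (27.9 ± 1.70 and 37.1 ± 3.60 CPM). Fas was, with Zbtb16, 1 of the 2 that did not pass without 2-week replicate 4, at a limma adjusted p of 0.0594. Also higher in mean were the orphan receptor Gpr141, the lipase cofactor Apoc2 and the pseudogene Gad1-ps, which may share reads with its parent gene. Lower in mean were the heparan sulfate sulfotransferase Hs3st1 (76.4 ± 4.17 and 55.2 ± 4.86 CPM), the mitochondrial carrier Slc25a35 (17.4 ± 2.04 and 11.2 ± 1.36 CPM) and the imprinted long noncoding RNA Meg3 (6.98 ± 1.32 and 3.64 ± 0.597 CPM).

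**Figure D5:**
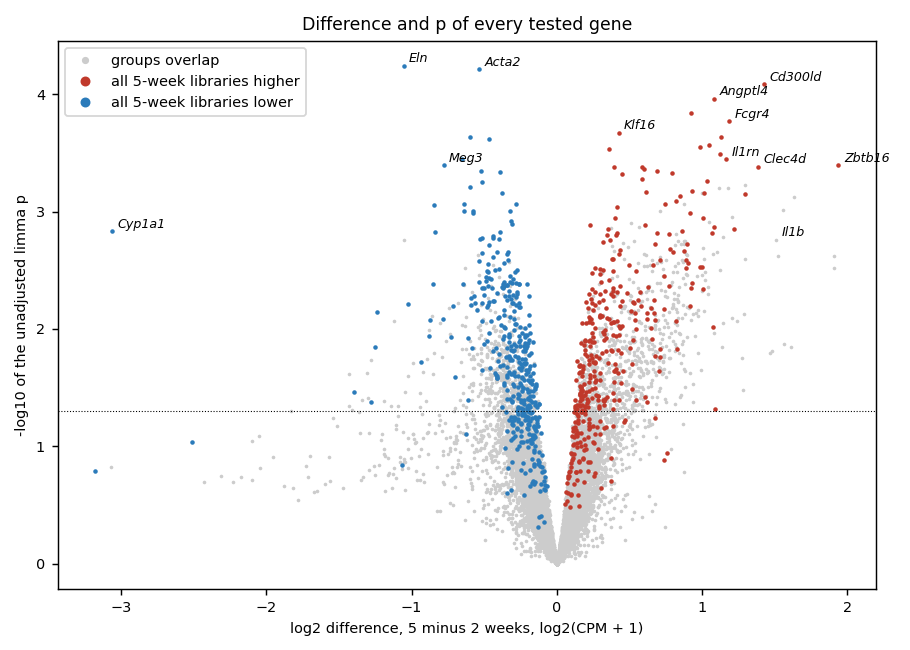
Log2 difference, 5 minus 2 weeks (x axis), against -log10 of the unadjusted limma p (y axis) for 15562 genes, with a dotted line at the unadjusted limma threshold. The 370 genes with all 5-week libraries higher are red and the 399 with all lower blue; Eln and Acta2 have the smallest p-values, and Il1b is grey because its groups overlap.

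The 0-week libraries place these genes on a wider scale. Of the 14 higher genes among the 20, the control mean lay between the 2-week and 5-week means for 10 and above the 5-week mean for 4. Of the 6 lower genes it lay between for 5 and above the 2-week mean for 1. Over the 370 genes with all 5-week libraries above, the control mean lay between for 265, under the 2-week mean for 58 and above the 5-week mean for 47. Over the 399 with all below it lay between for 279, above the 2-week mean for 32 and under the 5-week mean for 88. These genes were chosen for their difference between 2 and 5 weeks, which favours a control mean in between, so the counts are a description.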

How the data were processed

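Bulk RNA-seq of 12 whole lungs was deposited by the authors as 1 table of CPM values, to each of which 0.0001 is added. The submitters' processing notes name TopHat2, Partek and mm10, without versions; how reads were assigned to genes and strands is not given in the sources used here. Gene positions are in a build the table does not name: 501 of 23073 genes started where GENCODE M21 (GRCm38) places the same identifier. Since 22662 genes had the GENCODE length as the distance from start to stop, the stop counts 1 base too far and printed ends are 1 lower. RefSeq promoters carry GRCm38.p6 coordinates, which must not be mixed with them.

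Between 87.1% and 88.0% of low CPM values, up to 20 steps, lay within 0.1 of a whole read step. Reads could not be recovered from this, so no count model was fitted and no counting interval is given. Log2(CPM + 1) values of the 15562 genes averaging 1 CPM or more were fitted with limma 3.58.1 in R 4.3.3, on all 12 libraries with 1 mean for each group and a variance trend. The contrast of 5 minus 2 weeks was tested two-sided and adjusted by the Benjamini-Hochberg method at 0.05. The test was tested on simulated data. Python 3.11.15 with pandas 2.3.3 and matplotlib 3.10.9 served for sequences and plots.

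The comparison and the 54 lists were chosen with earlier results of these data known. The rule names Il1b, the 20 genes with the smallest p without predicted genes, and the 2 members with the smallest p of each list with no passing member; not all are printed, and 2 of them are not reported here. Mice are taken as separate animals from their numbers in the labels. Alternatives were quantile or median-of-ratios scaling, pseudocounts of 0.1 or 5, a filter at 10 CPM or none, robust moderation, library weights, a fit of the 8 treated libraries, and libraries left out. A single-cell experiment was not analysed here.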

Additional observations from a re-analysis of the deposited data

Results flagged for a closer look

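A library is picked out here where its gap to the nearest of its group, divided by the range of the group of 4, exceeded Dixon's critical value for 4 samples. Of 240 values examined (list means and single genes at 2 and 5 weeks, all as log2(CPM + 1)), 28 were picked out, 11.7%, where chance gives about 1 in 20.

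In the 2-week group replicate 4 was the high library for the lists of the IL-1 family (0.884), chemokines (0.835), neutrophils (0.892), interstitial macrophages (0.831), T cells (0.906) and collagens (0.832), and the low one for ciliated cells (0.928). It was the high library for the genes Il1rn (0.832), Treml4 (0.83), Ear2 (0.834), Ear1 (0.914), Mmp9 (0.955), Col1a1 (0.89) and Gad1-ps (0.846). Replicate 3 was the high library for the skeletal muscle list (0.971), Myh4 (0.936), Tnnt3 (0.88) and Slc25a35 (0.85), and replicate 1 for the alveolar type 1 list (0.841).

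In the 5-week group every library picked out was replicate 3. It was high for T cells (0.837), B cells (0.931), nuclear-encoded oxidative phosphorylation (0.861), ribosomal proteins (0.867), Cd79a (0.834), Cd22 (0.883) and Ppbp (0.964), and low for BMP signalling (0.87) and Meg3 (0.852).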

How the results depend on the processing

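The count of genes past the limma threshold, 0 in each direction, held under all 24 alternatives but 3. Library weights gave 579 higher and 302 lower, leaving out 2-week replicate 4 gave 287 and 99 (the range over single libraries left out was 0 to 287 and 0 to 99), and leaving out 2-week replicates 3 and 4, added after seeing the data, gave 38 and 5. Genes with all 5-week libraries above numbered 232 under a filter of 10 CPM, 1312 without the 3 libraries that stand apart (control replicate 2, 2-week replicate 3 and 5-week replicate 3) and 2029 without 2-week replicates 3 and 4; with single libraries left out they numbered 368 to 1631, the most without 2-week replicate 4. Genes with all below numbered 1161 without the same 3 libraries and 1921 without 2-week replicates 3 and 4, and 398 to 1327 with single libraries left out. Fewer libraries leave fewer pairs to overlap. The Il1b difference was 1.60 with library weights, past the threshold, and 1.23 to 1.85 with single libraries left out, past it only without 2-week replicate 4. Over the named genes, 2759 of 2878 gene and setting pairs kept direction and side of the threshold, 119 passed it and 0 reversed. Some alternatives, such as leaving out a control or robust moderation, cannot change a difference. Most of these genes were also named for a small p in this comparison, so the absence of reversals is a description. Of 1296 list medians 25 moved, in 11 lists. Scaling moved the median of all genes by at most 0.00449. No paired analysis was possible because the labels give mouse numbers that no group shares. The offset and the unrecovered read counts leave the precision of genes near 1 CPM unknown.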

Other observations

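Epithelial lists lay lower in mean at 5 weeks in the airway and near 0 in the alveolus. All 16 tested club and secretory genes were lower in mean, 5 at an unadjusted p under 0.05 (median -0.39), among them Gabrp, a GABA receptor subunit of airway epithelium, at 87.1 ± 10.5 and 68.8 ± 4.37 CPM, and Hp, haptoglobin, at 1030 ± 121 and 796 ± 75.7 CPM (SD, n = 4), both with overlap. Of 20 ciliated genes 19 were lower in mean (median -0.21, and -0.35 without 2-week replicate 4); Ccdc39, a ciliary assembly protein, averaged 21.7 ± 4.03 and 15.6 ± 0.926 CPM. Alveolar type 2 genes had a median of 0.08 (between 0.04 and 0.13 with each library left out in turn) and alveolar type 1 genes of -0.03 (between -0.06 and 0.02). Spock2, an alveolar type 1 proteoglycan, averaged 650 ± 43.9 and 519 ± 49.8 CPM without overlap.

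Genes of the pathway that L-NAME blocks lay on both sides: of 24 nitric oxide and cGMP genes 12 were higher and 12 lower (median -0.004, between -0.02 and 0.03). Nos3, the endothelial synthase, named outside the rule, averaged 29.7 ± 4.59 and 26.9 ± 5.69 CPM, and Npr1, a receptor guanylate cyclase, 168 ± 1.59 and 147 ± 12.6 CPM without overlap. Of 26 tested BMP and pulmonary hypertension genes 19 were lower in mean (median -0.05, between -0.11 and -0.02), with Acvrl1, an endothelial BMP receptor, at 948 ± 66.7 and 760 ± 76.0 CPM and the inhibitory Smad6 at 404 ± 56.9 and 321 ± 33.02 CPM. Of 23 TGF-beta genes 12 were higher and 11 lower in mean, 1 wholly above and 3 wholly below (median 0.02, between -0.06 and 0.06). Tgfbi, the one above, a TGF-beta-induced matrix protein, averaged 66.8 ± 10.8 and 97.7 ± 10.5 CPM without overlap. Plvap, of the diaphragm of endothelial openings, averaged 712 ± 47.9 and 554 ± 40.7 CPM without overlap. Of 19 tested NRF2 antioxidant genes 12 were lower and 7 higher in mean (median -0.08), 3 wholly below and 2 wholly above. The 2 above, G6pdx and Slc7a11, averaged 35.6 ± 2.99 and 46.9 ± 1.88 CPM, and 1.22 ± 0.255 and 2.40 ± 0.530 CPM. Of 15 mitochondrially encoded genes 13 were lower in mean (median -0.28), and ribosomal protein genes had a median of 0.18 that was 0.02 without 5-week replicate 3.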
